A study of Mus musculus with 4 samples.

Results

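Tubulin isoforms are described here in mouse hearts after transverse aortic constriction (TAC). The members were 10 genes, 5 alpha tubulins (Tuba1a, Tuba1b, Tuba1c, Tuba4a and Tuba8) and 5 beta tubulins (Tubb2a, Tubb2b, Tubb3, Tubb5 and Tubb6), of 21658 genes that had a probe named by a RefSeq or Ensembl transcript. They were chosen by name, with earlier results of these data known. All 12 of their probes were taken, 2 each for Tuba1b and Tubb2b and 1 for each of the other 8 members. Total RNA of male hearts was hybridized to 4 one-color Agilent arrays, 1 for each condition, and each array carried RNA pooled from several C57BL/6J mice. The groups were sham-operated hearts at 2 weeks, TAC hearts at 2 weeks, sham-operated hearts at 8 weeks and TAC hearts at 8 weeks after surgery. By the labels the mice were 10 weeks old in the 2-week groups and 16 weeks old in the 8-week groups, whereas the study's methods state an older age at surgery than the 2-week label allows. No transgene or drug is named for any group, and all 4 arrays lay on 1 slide. TAC narrows the aortic arch, so that the left ventricle pumps against a raised pressure. The study took the 2-week time point as the hypertrophic phase and the 8-week time point as heart failure.

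Alpha and beta tubulin pair into a heterodimer, and heterodimers stack end to end into the hollow polymer of the microtubule. The genes of each family encode nearly the same protein, and the isoforms differ mainly in the acidic tail at the carboxyl end, which projects from the lattice and takes up detyrosination, glutamylation and other modifications. In cardiac muscle the microtubule network surrounds the nucleus and runs between the myofibrils, and a denser and more detyrosinated network stiffens the contracting myocyte in animals under pressure overload and in failing human hearts. Tubulin RNA is also subject to feedback, in that free heterodimers trigger the decay of tubulin transcripts that are being translated.

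With 1 array of pooled RNA per condition, the spread between mice could not be measured and no p-value was computed. Each ratio is that of 2 pools. Signals are given as multiples of the array's 75th percentile over all non-control probes, and ratios are log2 of TAC over sham unless a fold is named. Signals of different probes cannot be set against each other, so each isoform was compared only with itself across arrays. A gene counted as past a threshold when the ratio was over 2-fold (or over 1.5-fold) and the probe was well above background on the brighter array. The error was judged in a pair of ways. The first was the SD of the log2 ratio between single spots on 2 arrays, taken from probes printed more than once, which was 0.056 for bright probes, 0.112 for probes between 0.25 and 4 times the 75th percentile and 0.249 for dim ones. The other was the log2 ratio of the 8-week sham pool to the 2-week sham pool, which also holds any effect of age.

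The 75th percentile of the processed signal lay between 206.0 and 248.5 on the 4 arrays, and between 54.7% and 58.5% of probes were well above background. The cardiomyocyte markers Myh6, Actn2, Tnnt2, Tnni3, Ryr2 and Myl2 were all measured on all 4 arrays. The 4 genes of pressure overload Nppa, Nppb, Myh7 and Acta1 were over 2-fold higher in TAC at both times. The 12 tubulin probes were well above background on all 4 arrays, and none was flagged as an outlier or was saturated.

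At 8 weeks the beta tubulin pair Tubb2a and Tubb2b and the alpha tubulin Tuba1c had the highest TAC over sham ratios among the 10 isoforms, 1.82-fold, 2.00-fold and 1.63-fold. The members' median log2 ratio was 0.42, against -0.01 over the 14247 genes measured on all 4 arrays, and 9 of 10 members lay above 0, the exception being Tuba4a (10 of 10 without normalization between arrays). At 2 weeks the median was 0.12 against -0.01 over all genes, and Tubb2b and Tubb2a were again highest, at 1.54-fold and 1.45-fold. Since the RNA came from whole hearts, more or fewer cells of a type and more or less RNA per cell cannot be told apart.

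**Figure D1:**
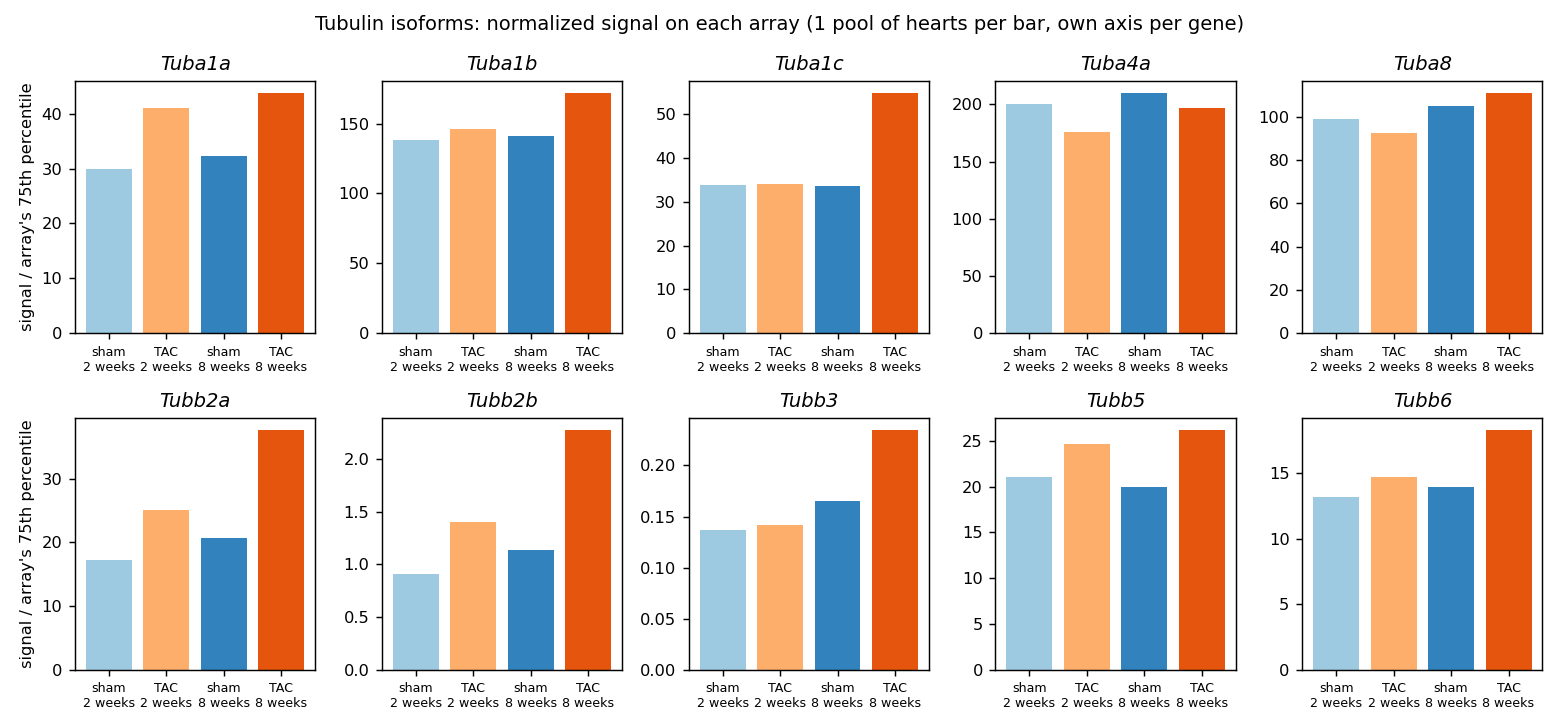
Signal of each isoform's main probe on each of the 4 arrays, as a multiple of the array's 75th percentile (linear axis from 0, own axis for each gene). Each bar is 1 array of pooled RNA, so there are no error bars. The 8-week TAC bar is the tallest in every panel but that of Tuba4a, where the 8-week sham bar is.

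Among the alpha tubulins, Tuba1a, Tuba1b and Tuba1c lie close together on mouse chromosome 15. In RefSeq on GRCm38 they span chr15:98949847-98953501 on the minus strand, chr15:98931429-98934390 on the minus strand and chr15:99029891-99038105 on the plus strand. Between Tuba1b and Tuba1a lie 15456 bases, and between Tuba1a and Tuba1c 76389 bases. Each gene has 4 exons in the matching GENCODE transcript. Their proteins are nearly alike. Tuba1a and Tuba1b differ in 2 residues, with 99.6% identity, and Tuba1c differs from each in 8 residues, with 98.2% identity. The transcripts are alike too, since 49.0% of the 60-base windows of Tuba1a, 62.1% of those of Tuba1b and 58.6% of those of Tuba1c occur letter for letter in another member. Where each probe lies was not analysed here, so a probe in a shared window would read more than 1 of these genes, and their separate values are uncertain to that extent.

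Tuba1a, the alpha tubulin most known from developing neurons, had signals of 29.9 in the 2-week sham pool, 41.0 in the 2-week TAC pool, 32.3 in the 8-week sham pool and 43.8 in the 8-week TAC pool. Both TAC pools lay above both sham pools, with 0.34 on the log2 scale between the lowest TAC and the highest sham signal. The ratio was 0.45 at 2 weeks and 0.44 at 8 weeks, against 0.11 between the sham pools. Tuba1a was the one member whose ratio was not larger at 8 weeks than at 2 weeks. That difference of -0.02 is smaller than the spot SD of 0.056, and its sign depends on the scaling. With centering on the median the ratio was 0.41 at 2 weeks and 0.53 at 8 weeks, and without normalization 0.45 and 0.61. Among all genes measured on all 4 arrays, 51.2% had a larger ratio at 8 weeks.

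Tuba1b, a housekeeping alpha tubulin of most tissues, read 138, 146, 141 and 172 in the same order of arrays. The ratio was 0.09 at 2 weeks, which is within 2 SD of single-spot ratios, and 0.29 at 8 weeks. The second probe for Tuba1b read 51.0, 54.2, 54.9 and 64.3, with ratios of 0.09 and 0.23. The probes differ on one point, as both TAC pools lay above both sham pools on the first, by 0.05, and not on the second.

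Tuba1c, another broadly expressed alpha tubulin, was nearly flat over the first 3 arrays and higher on the last. It read 33.8 in the 2-week sham pool, 34.2 in the 2-week TAC pool, 33.6 in the 8-week sham pool and 54.9 in the 8-week TAC pool. The ratio was 0.01 at 2 weeks and 0.71 at 8 weeks, a difference of 0.69 that had no replicate check. Its sham pools differed by -0.01, and the 8-week ratio is many times the spot SD of 0.056.

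Tuba4a and Tuba8 lie on other chromosomes, at chr1:75214972-75221261 on the minus strand and chr6:121210734-121226098 on the plus strand of GRCm38, and no 60-base window of either transcript occurs in another member. Tuba4a encodes an alpha tubulin without the final tyrosine that the Tuba1 genes encode, and Tuba8 is an isoform known from striated muscle and testis. Tuba4a read 200.0, 176, 210.0 and 197, so that both TAC pools lay below both sham pools, as they did for 25.7% of all genes. The log2 ratio was -0.19 at 2 weeks and -0.09 at 8 weeks, while the sham pools differed by 0.07. Tuba4a was the member with the lowest ratio at both times. Without normalization between arrays the 8-week ratio was 0.08, so its direction at 8 weeks depends on the scaling.

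Tuba8 read 99.2, 92.7, 105 and 111, and the TAC and sham pools overlapped. The ratio was -0.10 at 2 weeks and 0.07 at 8 weeks, and the sham pools differed by 0.09. Of the 10 members, Tuba8 at 8 weeks was the one whose ratio was smaller than the sham difference.

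Of the beta tubulins, Tubb2a and Tubb2b are neighbors in the same direction on chromosome 13, at chr13:34074278-34078008 and chr13:34127008-34130354 on the minus strand of GRCm38, with 48999 bases between them. Both are major beta tubulins of neurons that are also expressed elsewhere, and their proteins differ in 2 residues, with 99.6% identity. Windows of 60 bases are shared here too, making up 43.3% of those of Tubb2a and 31.7% of those of Tubb2b, and a probe in such a window would read both genes.

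Tubb2a read 17.3 in the 2-week sham pool, 25.1 in the 2-week TAC pool, 20.7 in the 8-week sham pool and 37.7 in the 8-week TAC pool. Both TAC pools lay above both sham pools, by 0.28. The ratio was 0.54 at 2 weeks and 0.87 at 8 weeks, and the sham pools differed by 0.26. Tubb2b read 0.909, 1.40, 1.14 and 2.28 in the same order. Its TAC pools also lay above both sham pools, by 0.30, and its ratios were 0.63 and 1.0, with 0.32 between the sham pools. The second probe for Tubb2b read 0.303, 0.362, 0.322 and 0.547, the same order of arrays, with lower ratios of 0.26 and 0.76.

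Tubb2b at 8 weeks was the one member past 2-fold, and it sat at the threshold, with a 2.00-fold ratio on its main probe and 1.70-fold on its second probe. The count of 1 of 10 members stands beside a background of 3.26% of 15416 genes over 2-fold higher and 2.05% over 2-fold lower at 8 weeks. At 1.5-fold, Tuba1c, Tubb2a and Tubb2b were higher at 8 weeks, 3 of 10 members against 7.24% of genes, and 0 were lower against 5.62%. At 2 weeks 0 members were past 2-fold in either direction, against 2.4% of 15355 genes higher and 1.19% lower. Tubb2b was over 1.5-fold higher at 2 weeks, against 6.76% of genes, and 0 members were over 1.5-fold lower, against 3.33%. These shares include genes measured on 1 array of a pair. Among the 14247 genes measured on all 4 arrays, the 8-week ratio was over 2-fold higher in 1.74% and lower in 0.835%. It was over 1.5-fold higher in 5.24% and lower in 3.73%. The 2-week ratio was over 2-fold higher in 0.884% and lower in 0.47%, and over 1.5-fold higher in 4.09% and lower in 2.41%.

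The letters before the transcription start are shown for Tubb2a and Tuba1c, since both were past 1.5-fold at 8 weeks and differed at 2 weeks. The 250 bases run 5′ to 3′ on the strand of the gene up to the base before the RefSeq start on GRCm38.p6, at chr13:34078009-34078258 on the minus strand and chr15:99029641-99029890 on the plus strand. Capitals mark matches to a TATA box (TATAAA), a GC box (GGGCGG) or a CCAAT box (CCAAT) on either strand.
Tubb2a: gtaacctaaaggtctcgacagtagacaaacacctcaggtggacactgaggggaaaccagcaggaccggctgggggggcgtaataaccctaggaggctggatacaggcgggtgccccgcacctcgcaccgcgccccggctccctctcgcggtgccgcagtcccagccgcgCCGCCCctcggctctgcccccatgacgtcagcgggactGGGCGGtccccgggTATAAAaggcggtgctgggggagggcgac
Tuba1c: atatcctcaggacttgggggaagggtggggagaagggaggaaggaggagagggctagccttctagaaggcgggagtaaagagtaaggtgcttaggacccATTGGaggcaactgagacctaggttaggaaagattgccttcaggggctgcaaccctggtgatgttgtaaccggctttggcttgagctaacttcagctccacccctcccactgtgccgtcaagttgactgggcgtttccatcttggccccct

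The Tubb2a window holds a TATA box 29 to 24 bases before the start and 2 GC boxes, at 81 to 76 and 43 to 38 bases before it, and its GC content is 68.4%. The Tuba1c window holds 1 CCAAT box, on the reverse strand, 151 to 147 bases before the start, and its GC content is 55.6%. Over all 32536 promoter windows of this length the median GC content was 52.4%, and 12.3% held TATAAA, 33.0% GGGCGG and 33.8% CCAAT. Of the 8 members with a promoter entry, Tubb2a alone had TATAAA, 5 had GGGCGG (Tuba1a, Tuba1b, Tuba4a, Tubb2a and Tubb3) and 4 had CCAAT (Tuba1a, Tuba1c, Tubb3 and Tubb5). Apart from those of Tubb2a and Tuba1c, the members' windows overlap an annotated exon of the gene itself. The Tuba4a window lies within the gene span given above. An E-box (CACGTG), found in 6.04% of windows, was present in those of Tuba8 and Tubb5, and 0 members held a CArG box, found in 1.48%. These are matches of letters and were not set against any ratio.

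Tubb3, the beta tubulin used as a marker of neurons, lies at chr8:123411553-123422015 on the plus strand and was read by a dim probe. It read 0.137 in the 2-week sham pool, 0.142 in the 2-week TAC pool, 0.165 in the 8-week sham pool and 0.235 in the 8-week TAC pool, so that the 2-week TAC pool lay below the 8-week sham pool. The ratio was 0.06 at 2 weeks and 0.51 at 8 weeks, where the spot SD is 0.249 and the sham pools differed by 0.27. With normexp background correction the 8-week ratio was 0.16. Of the 7 neuron markers, Syt1 was not well above background on any array and the median ratio of the 6 others was -0.08 at 2 weeks and -0.03 at 8 weeks. The summed signal of all 7 was 145 and 127 in the sham pools and 134 and 132 in the TAC pools. It is nearly that of the Snap25 probe alone (135 and 116 in the sham pools, 126 and 124 in the TAC pools). Within that list Uchl1 was higher at 8 weeks (1.09), while Dbh, the noradrenaline-forming enzyme of sympathetic neurons, was lower at both times (-0.76 and -1.63).

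Tubb5, the beta tubulin of most dividing and nondividing cells, lies at chr17:35833920-35838301 on the minus strand. It read 21.0, 24.6, 19.9 and 26.2, with ratios of 0.23 and 0.40 and a sham difference of -0.08. Tubb6, a divergent beta tubulin of many tissues, lies on chromosome 18 and read 13.2, 14.7, 13.9 and 18.3, with ratios of 0.16 and 0.40 and a sham difference of 0.07. Both TAC pools lay above both sham pools for Tubb5, by 0.23, and for Tubb6, by 0.09. Their ratios were above 2 spot SD at both times, and no 60-base window of their transcripts occurs in another member.

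**Figure D2:**
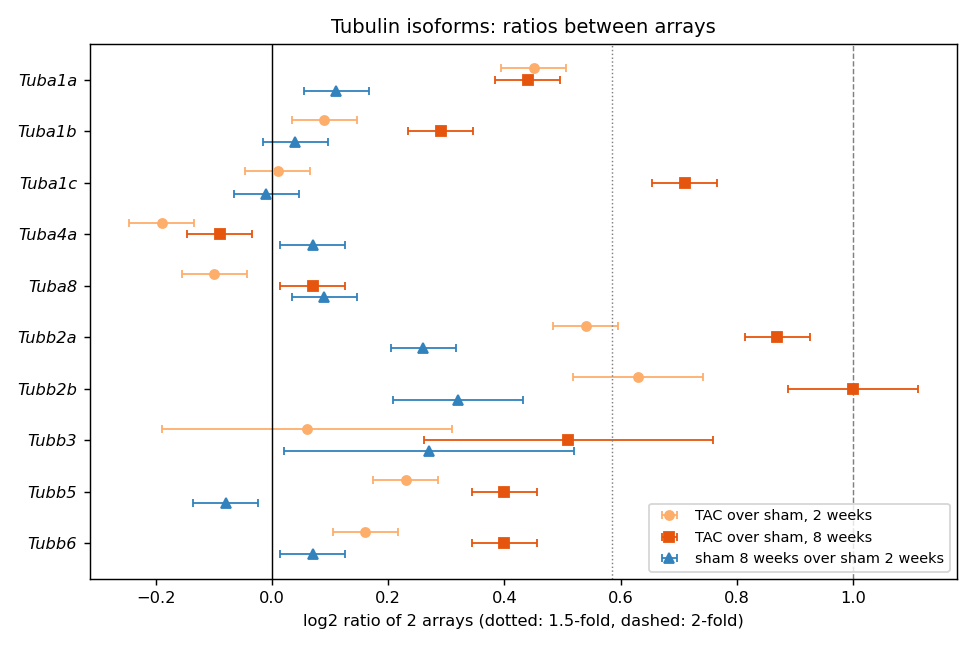
Log2 ratios of 2 arrays for each isoform's main probe, TAC over sham at 2 weeks (circles) and 8 weeks (squares) and 8-week sham over 2-week sham (triangles). Bars are the SD of single-spot log2 ratios at that brightness (0.056, 0.112 or 0.249), not a spread between mice. Tubb2b at 8 weeks sits on the 2-fold line at 1.0, and Tuba1c moves from 0.01 at 2 weeks to 0.71 at 8 weeks.

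All 5 beta members had ratios above 0 at both times, with a 2-week median of 0.23 and an 8-week median of 0.51. Of the alpha members 3 of 5 were above 0 at 2 weeks and 4 of 5 at 8 weeks, with medians of 0.01 and 0.29. Over all genes 48.5% were above 0 at 2 weeks and 48.3% at 8 weeks. At 8 weeks the beta ratios ran from 0.40 to 1.0 and the alpha ratios from -0.09 to 0.71, so the families overlapped, and the 5th and 95th percentiles of all genes were -0.52 and 0.60. Outside the members, the beta tubulins Tubb4b (-0.11 and 0.26) and Tubb4a (0.15 and 0.27) lay below the 8-week range of the beta members. The alpha tubulins Tuba3a and Tuba3b, also outside the members, had 0.06 and 0.07 and 0.17 and 0.21 on their main probes. The family difference was not tested.

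**Figure D3:**
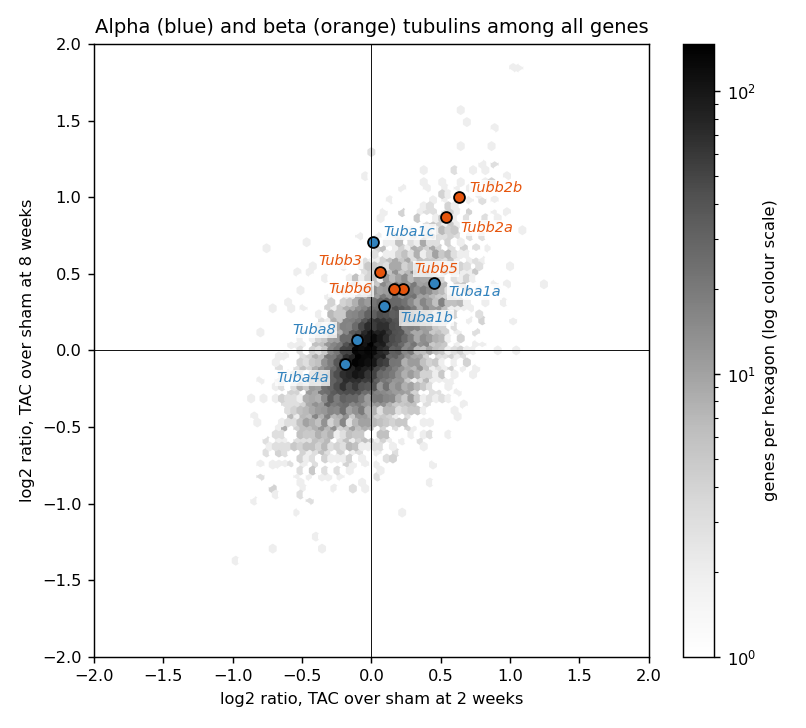
Log2 ratio of TAC over sham at 2 weeks (horizontal) against 8 weeks (vertical) for the 14247 genes measured on all 4 arrays, shaded by the number of genes per hexagon on a log color scale, with the alpha (blue) and beta (orange) isoforms on top. The axes end at a log2 ratio of 2 in either direction, which leaves out 55 genes. Tubb2b and Tubb2a lie at the upper right and Tuba4a at the lower left of 0.

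For 7 of the 10 members both TAC pools lay above both sham pools, namely Tuba1a, Tuba1b, Tuba1c, Tubb2a, Tubb2b, Tubb5 and Tubb6, and 23.8% of all genes measured on all 4 arrays did so. The 8-week TAC pool was the highest of the 4 for 9 members, against 31.9% of all genes. Members share the same 4 pools, so these counts are not separate pieces of evidence.

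Between the sham pools, which differ in age as well as in time after surgery, the isoforms lay closer. No member differed by over 1.5-fold between the sham pools, where 3.8% of 15140 genes were over 1.5-fold higher at 8 weeks and 2.29% lower, and 1.66% and 1% were past 2-fold. Among the 14247 genes measured on all 4 arrays, as the members were, these shares were 1.58% and 1.17% at 1.5-fold. At 2-fold they were 0.323% and 0.218%. The largest sham differences were those of Tubb2b (0.32), Tubb3 (0.27) and Tubb2a (0.26). The TAC ratio exceeded the sham difference in size for 9 members at 2 weeks, all but Tubb3, and for 9 at 8 weeks, all but Tuba8, against 59.1% and 63.6% of all genes measured on all 4 arrays. At 2 weeks the 9 include Tuba1b, Tuba1c and Tuba8, whose ratios were within 2 spot SD. The 8-week TAC pool was above the 2-week TAC pool for all 10 members, against 54.7% of all genes, with a median log2 ratio of 0.28 against 0.03 over all genes, highest for Tubb3 (0.72), Tubb2b (0.70), Tuba1c (0.68) and Tubb2a (0.59).

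The alpha and beta tubulins outside the 10 members were read by 6 genes with a probe. Tubb4b, a beta tubulin of most tissues and of cilia, read 102, 94.6, 101 and 121, with ratios of -0.11 and 0.26. Tubb4a, a beta tubulin of brain, read 1.67, 1.86, 1.74 and 2.09, with ratios of 0.15 and 0.27. The testis alpha tubulins Tuba3a and Tuba3b had ratios of 0.06 and 0.07 and of 0.17 and 0.21, and the second probe for Tuba3a gave 0.14 and 0.55. Both Tuba3a probes were dim, with a spot SD of 0.249. Tubb1, the beta tubulin of platelets, was well above background in the TAC pools and not in the sham pools. The bound on the Tubb1 fold was 1.15 at 8 weeks and under 1-fold at 2 weeks (0.966). With a spot SD of 0.249 on this dim probe, no difference can be given at either time. Tubal3 was not well above background on any array.

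The genes around the microtubule were read from 10 lists that hold 120 genes, of which 116 had a probe and 102 were measured on all 4 arrays. Of the 116, counting also those measured on fewer arrays, 10 were over 1.5-fold higher and 5 lower at 8 weeks. The shares were 7.24% and 5.62% of the 15416 genes well above background on at least 1 array of that pair. Some of the 116 were not well above background on any array and could not be called. At 2 weeks 4 of the 116 were over 1.5-fold higher and 3 lower, against 6.76% and 3.33% of 15355 genes counted in the same way. Past 2-fold there were 0 higher and 1 lower at 2 weeks, against 2.4% and 1.19%, and 2 higher and 2 lower at 8 weeks, against 3.26% and 2.05%. The 7 folding cofactors that assemble the heterodimer had medians of -0.00 and 0.10, with 0 past 1.5-fold at either time. Gamma, delta and epsilon tubulin and the ring complex that nucleates microtubules, 8 genes, had medians of -0.04 and -0.10, with 0 past 1.5-fold.

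The stabilizers and lattice binders had medians of 0.11 and 0.16. Map1a, a microtubule-associated protein of neurons, was over 1.5-fold higher at both times (0.60 and 0.63), with 0.24 between the sham pools. Map6 was over 1.5-fold higher at 8 weeks (0.91), with 0.52 at 2 weeks. Map4, the main microtubule-associated protein of muscle, had ratios of 0.11 and 0.33. Among the motors, the axonal kinesin Kif1a was higher at both times (0.75 and 1.19) and so was Dync1li1, a light intermediate chain of dynein (0.68 and 0.73). Kif5c was the other gene past 2-fold at 8 weeks (1.30), with -0.02 at 2 weeks and -0.36 between the sham pools, and Kif5b, the kinesin of most tissues, had ratios of 0.48 and 0.86. Kif5c, Kif5b, Map4, Map6 and the genes of the next paragraph other than Ttll1 were named after their values were seen.

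The 17 enzymes that modify tubulin and were measured on all 4 arrays had medians of 0.06 and 0.10. Of these, 9 were above 0 at 2 weeks and 10 at 8 weeks, against 48.5% and 48.3% of all genes. Ttll1, the catalytic part of a tubulin polyglutamylase, was lower at both times (-0.71 and -1.24). It read 16.5 and 16.7 in the sham pools and 10.0 and 7.10 in the TAC pools. Atat1 and Hdac6, also in this list, had ratios of 0.46 and 0.44 and of 0.20 and 0.36. Their sham pools differed by 0.38 and 0.0. Agtpbp1, which removes glutamates from tubulin tails, was over 1.5-fold lower at 8 weeks (-0.64), with -0.31 at 2 weeks. Vash1 and Svbp, the detyrosinating enzyme and its partner, had ratios of -0.06 and -0.19 and of 0.20 and 0.13, and Ttl, which puts the tyrosine back, had 0.06 and 0.24. The 11 destabilizers and severing enzymes measured on all 4 arrays had medians of 0.10 at both times. Among them Stmn1, which holds free heterodimers, was over 1.5-fold higher at 8 weeks (0.61), as was Fignl1 on a dim probe (0.98). Between the sham pools Stmn1 differed by -0.07 and Fignl1 by -0.51. Fign was over 1.5-fold lower (-0.96). The plus-end protein Clip1 was over 1.5-fold higher at 8 weeks (0.78). Besides Ttll1, the gene over 2-fold lower at 8 weeks was Map2, and the one at 2 weeks was Dync1i1. Map2 and Dync1i1 were each well above background on 1 array alone, a sham array in both cases.

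**Figure D4:**
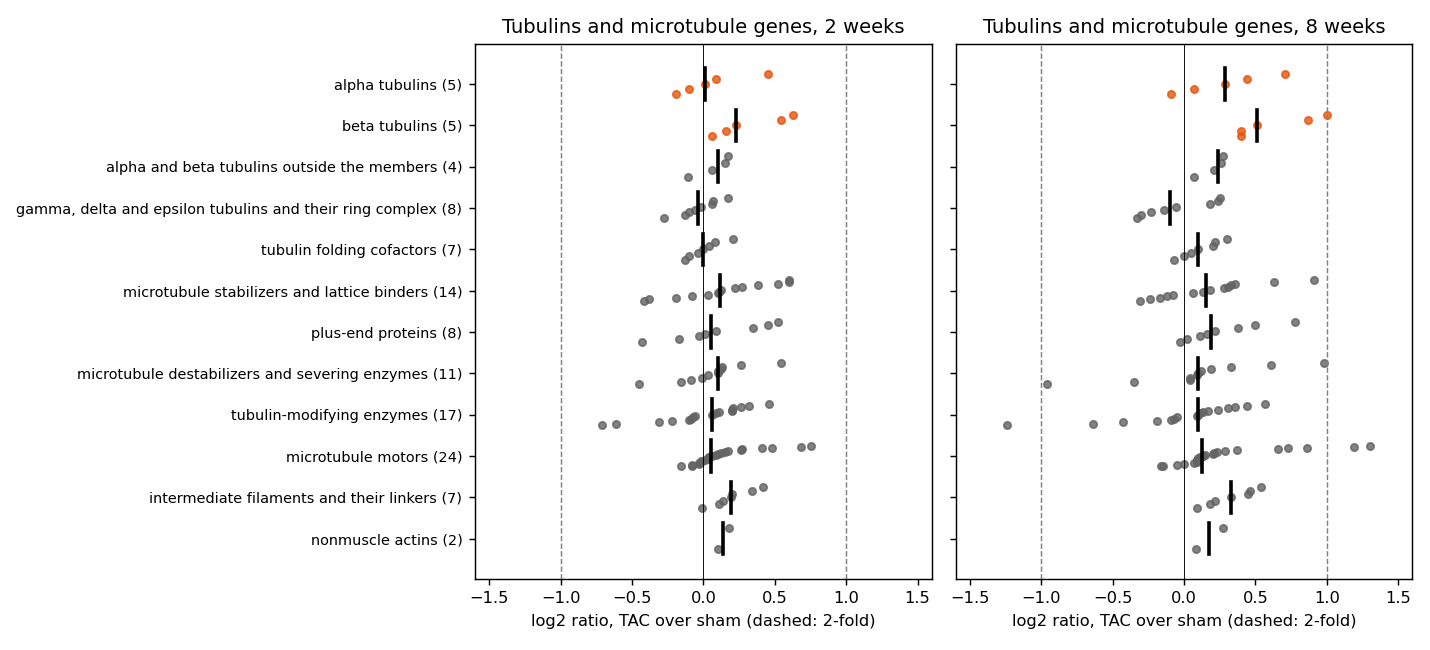
Log2 ratio of TAC over sham at 2 weeks (left) and 8 weeks (right) for the 10 isoforms (orange) and the microtubule genes measured on all 4 arrays (gray), with the number of genes in parentheses. Each point is 1 gene, the black bar is the list's median and dashed lines mark 2-fold. The beta tubulins have the highest median of the rows at 8 weeks (0.51), followed by the 7 intermediate filament genes (0.33) and the alpha tubulins (0.29).

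The intermediate filaments, which share the cytoskeleton of the myocyte with the microtubules, had medians of 0.19 and 0.33, with 7 of 7 genes above 0 at 8 weeks and 0 past 1.5-fold. Des, the filament of muscle, had ratios of 0.34 and 0.54, and Vim, that of mesenchymal cells, 0.42 and 0.45. The nonmuscle actins had medians of 0.14 and 0.17.

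Markers of several other cell types were also higher in the TAC pools. All 7 fibroblast markers were above 0 at both times, with medians of 0.90 and 0.94, and their summed signal was 207 and 232 in the sham pools and 287 and 338 in the TAC pools. Most of that sum is the Dcn probe (143 and 167 in the sham pools, 162 and 203 in the TAC pools), whose pools overlapped. Postn, a matrix protein of activated fibroblasts, had ratios of 2.29 and 2.92. The collagen chains Col1a1 and Col1a2 had 0.97 and 1.20 and 0.90 and 0.99, and the matrix proteoglycan Lum had 0.89 and 0.94. All 5 macrophage markers were above 0 at both times, with medians of 0.44 and 0.40 and sums of 32.8 and 33.4 in the sham pools and 41.3 and 42.8 in the TAC pools, and Cd14, a receptor for bacterial lipopolysaccharide, had ratios of 0.71 and 0.91. The 4 of 5 proliferation markers measured on all 4 arrays had medians of 0.92 and 1.16, with 3 of 4 above 0 at 2 weeks and 4 of 4 at 8 weeks. The summed signal of all 5 was 1.73 and 1.33 in the sham pools and 2.85 and 3.04 in the TAC pools. The cyclins Ccnb1 and Ccna2 had ratios of 1.61 and 1.57 and of 1.07 and 1.09, and Mki67 had 0.77 and 1.23. Cdk1, the kinase of mitotic entry, was over 2-fold lower at 2 weeks (-1.20) and had 0.18 at 8 weeks. Between the sham pools the proliferation markers had a median of -0.17, and 1 was over 2-fold lower at 8 weeks, against 1% of genes. Cardiomyocyte markers had a median of -0.17 at both times, and their sum was 5192 and 4969 in the sham pools and 4763 and 4358 in the TAC pools. Schwann cell markers were below 0 in 4 of 4 genes at both times. The part of these cells in the tubulin ratios was not tested.

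No member was past 2-fold at both times, so the genes most like a member were taken for Tubb2b, whose smaller ratio was the largest, after its values were seen. Over the 4 arrays and among 14232 genes outside the tubulins, the smallest distances between centered log2 signals were those of Ptn (0.079), Ccn1 (0.093), Sh3pxd2b (0.115), Uhrf1 (0.117) and Fxyd6 (0.13). Ptn, a secreted growth factor, read 0.209, 0.305, 0.262 and 0.497. Ccn1, a secreted matrix protein, read 3.91, 5.66, 4.52 and 9.60.

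**Figure D5:**
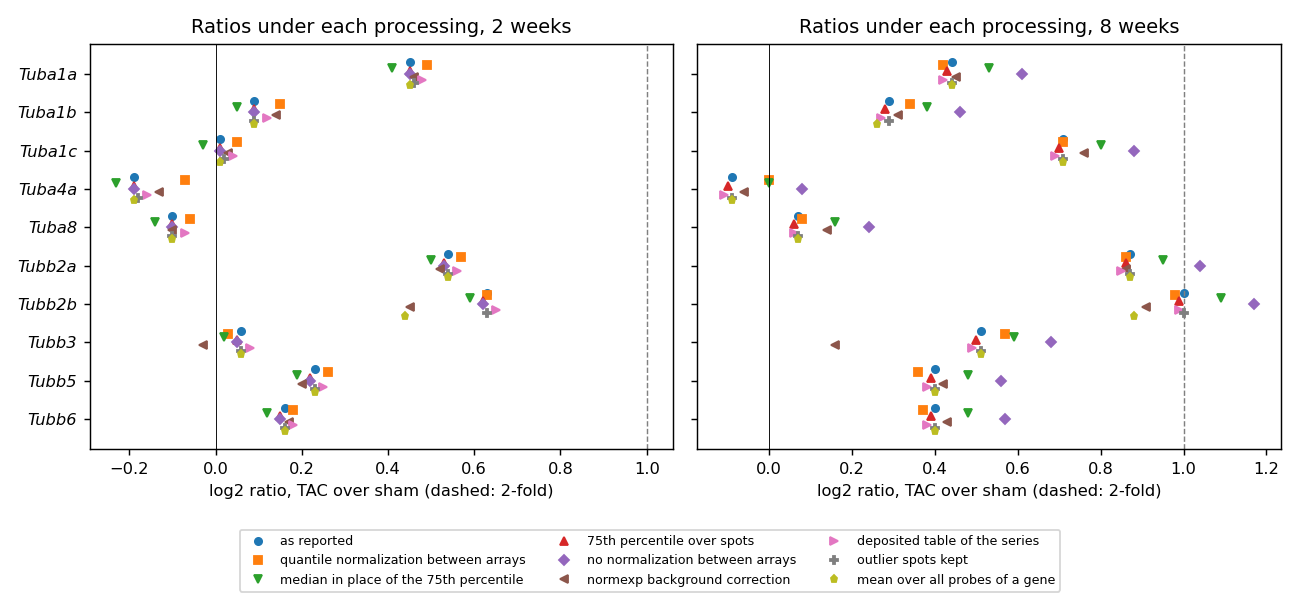
Log2 ratio of TAC over sham for each isoform at 2 weeks (left) and 8 weeks (right) as reported and under 8 other ways of processing, each with its own marker. The 8-week ratios of Tubb2b run from 0.88 to 1.17, on both sides of the dashed 2-fold line, and those of Tubb3 run from 0.16 to 0.68.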

How the data were processed

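The members and the gene lists were chosen with earlier results of these data known. What the authors deposited is 1 scanner file per array. Processed signals in it are intensity values per spot, corrected by the scanner software for background and for trends across the array, without scaling between arrays. The file headers name Agilent Feature Extraction 10.7.3.1 and probe annotation on mm9, whereas the submitters' processing notes name version 9.1. The study's methods name GeneSpring GX11 without stating a normalization. The deposited intensity table of the series equals the processed signal times 1 constant per array, between 3.52 and 4.35.

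Of 55681 non-control probes, 32342 are named by a RefSeq or Ensembl transcript and 29358 of these matched a gene symbol. Spots marked as outliers were left out, log2 of the processed signal was taken, spots of a probe were averaged, and the array's 75th percentile over probes was subtracted. The probe with the highest mean signal stood for a gene. No test was possible with 1 array per condition. Before use, the calling step was tested on simulated data with known changes, which checks the arithmetic and gives no error rate for these arrays.

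All members and all other alpha and beta tubulins are named. From each other list the rule named the genes measured on all 4 arrays and over 1.5-fold in the same direction at both times, at most 4 per list. Genes named after their values were seen are marked as such, apart from Des, Vim, Uchl1, Snap25, Dcn, Cdk1 and the genes given to show a list's ends, which were also picked after their values were seen. Gene positions and promoter windows are those of RefSeq on GRCm38 and were not converted to the array's build. Transcript sequences, strands and exon counts are those of the GENCODE transcript matched to the RefSeq transcript that names each member's probe. Each protein was the longest open reading frame of its transcript, checked only for agreement in length with the annotated coding sequence. The proteins were aligned end to end. The bound for Tubb1 was set against whichever was higher, its sham signal or the lowest reading among probes well above background on that array.

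Alternatives tried were the percentile over spots, quantile normalization, centering on the median, no normalization, normexp background correction with an offset of 50 on the median spot signal, the deposited table, outlier spots kept, the mean over all probes of a gene, other filters on dim probes, and thresholds of 1.5-fold and 3-fold. The software was R 4.3.3 with limma 3.58.1, and Python 3.11.15 with matplotlib 3.10.9, scipy 1.17.1, numpy 2.4.6 and pandas 2.3.3.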

Additional observations from a re-analysis of the deposited data

Results flagged for a closer look

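The log2 ratios of Tuba8 had opposite signs at the 2 times, -0.10 at 2 weeks and 0.07 at 8 weeks, a difference of 0.17. Tubb4b, which is not one of the 10 isoforms, did the same with -0.11 and 0.26, a difference of 0.38. Both Tuba8 ratios were within 2 SD of single-spot ratios (SD 0.056), and the 8-week one was smaller than its sham difference of 0.09. With 1 array per condition neither difference was tested.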

How the results depend on the processing

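The count of isoforms over 2-fold at 8 weeks was 1 as reported, and Tubb2b sat at the threshold. The count was 0 under quantile normalization, with the 75th percentile over spots, with normexp, from the deposited table, with the mean over all probes of a gene and at 3-fold, 2 without normalization between arrays and 3 at 1.5-fold. At 2 weeks the count of 0 became 1 at 1.5-fold. The members' median at 8 weeks moved from 0.418 to 0.586 without normalization, where the median of all genes also moved, from -0.01 to 0.16. The cause of the other differences was not tested. Of 160 single ratios recomputed under 8 settings, 147 moved by less than 0.134, the SD of single-spot log2 ratios over all probes printed more than once. Of the 13 others, 10 were without normalization, 2 with normexp and 1 with the mean over all probes. Signs differed between settings for Tuba1c and Tubb3 at 2 weeks (-0.03 to 0.05 and -0.03 to 0.08) and Tuba4a at 8 weeks (-0.11 to 0.08). No paired analysis was possible because each condition has 1 array, and no array could be left out. The number of arrays limits the precision, and the dim probe of Tubb3 limits its ratio.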
